A study of Mus musculus with 10 samples.

Results

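Citrate synthase (Cs), the 3 subunits of NAD-dependent isocitrate dehydrogenase (Idh3a, Idh3b and Idh3g), the first component of the 2-oxoglutarate dehydrogenase complex (Ogdh), 2 subunits of succinyl-CoA synthetase (Suclg1 and Suclg2), fumarate hydratase (Fh1) and mitochondrial malate dehydrogenase (Mdh2) were followed as enzymes of the citric acid cycle in mouse liver. They were taken by gene symbol and make up 9 of the 23420 gene rows. All 9 had enough reads to enter the test, as did 12796 genes in all. The libraries come from a study of gene regulation by histone lysine β-hydroxybutyrylation, a mark derived from a ketone body. RNA was sequenced from the livers of 5 starved and 5 fed male C57BL/6 mice aged 4 months, 1 mouse a library. Starved mice had no food but free water for 48 hours, and fed mice had standard chow. Neither group carries a transgene or a deletion that the labels name.

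The citric acid cycle runs in the mitochondrial matrix, where it oxidises the acetyl group of acetyl-CoA to carbon dioxide and passes the electrons to NAD+ and FAD. In liver it is also a crossroads: amino acids enter it as 2-oxoglutarate, succinyl-CoA, fumarate and oxaloacetate, citrate leaves it for lipid synthesis, and malate or oxaloacetate leaves it for gluconeogenesis. During fasting the liver draws on the last of these exits and turns much of its acetyl-CoA into ketone bodies.

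In starved liver 7 of the 9 genes rose, 1 fell and 1 was not called. The call was made by edgeR's quasi-likelihood test on the whole table, with Benjamini-Hochberg adjusted p-values below 0.05. Of all tested genes 18.6% rose and 20.0% fell by the same rule. Fh1 rose the most, to 3.83 times its fed level, followed by Idh3a, Ogdh, Mdh2, Idh3g, Suclg1 and Idh3b, while Cs fell to 0.799 times its fed level and Suclg2 was not called. Levels are given in CPM, read counts relative to library size after TMM scaling. For 8 of the 9 genes no starved library overlapped a fed one, against 29.9% of all tested genes. The median log2 fold change was 0.61 over the 9 genes and 0.00 over all tested genes. In bulk tissue fewer cells of a type and less RNA per cell cannot be told apart, so each value below is a share of the RNA in the whole liver sample.

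**Figure D1:**
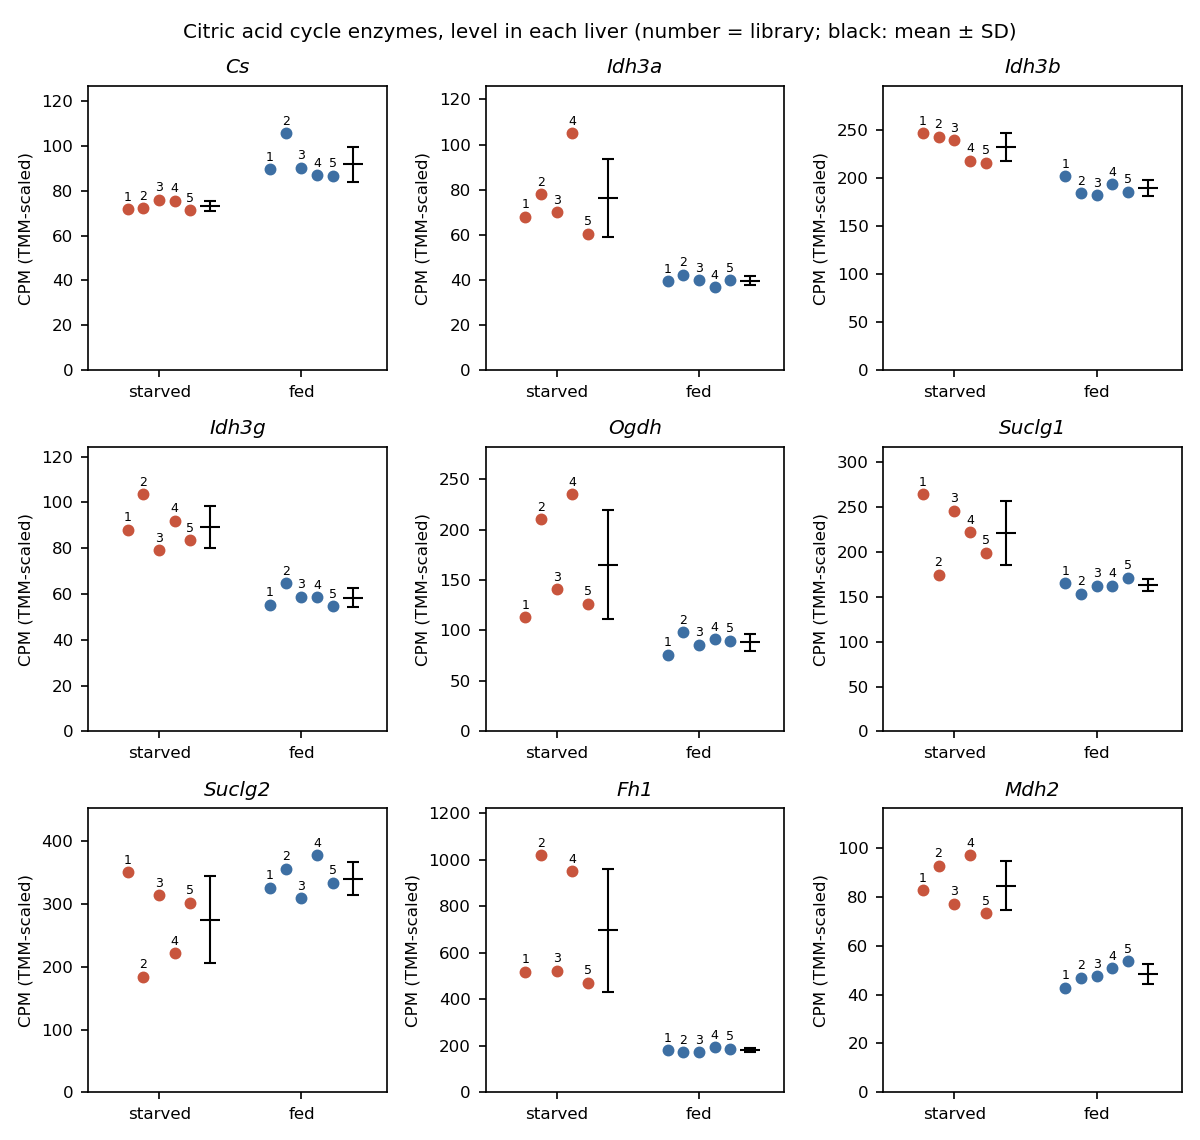
Level of each of the 9 citric acid cycle genes in CPM (read counts relative to library size, scaled by TMM), on axes that start at 0, in 5 starved livers (left in each panel) and 5 fed livers (right). Points are single libraries with their numbers, and the black bar beside each group is the mean and SD. The groups lie apart for every gene except Suclg2, and starved libraries 2 and 4 hold the 2 highest Fh1 and Ogdh values and the 2 lowest Suclg2 values.

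Depth and library differences bear on these values. Reads in genes ranged from 18.2 to 28.1 M in starved and from 23.0 to 29.9 M in fed libraries. Starved library 2 stood apart from its group, with a median log2 distance to its group of 0.993 against 0.544 to 0.647 for the other starved libraries and 0.363 to 0.391 for fed libraries, and starved library 4 was the next farthest at 0.647. The counts of the 9 genes called are the same without both (7 rose and 1 fell). In that setting 2646 of 13080 tested genes rose and 2705 fell. The defining hepatocyte genes were abundant throughout, with a summed level of 115582 to 188621 CPM in starved and 89444 to 133658 CPM in fed libraries (4 of 9 rose, 1 fell). Markers of some other cells moved as well, and the counts stand beside 18.6% of all tested genes that rose and 20.0% that fell. Kupffer cell markers fell for 6 of 7 (summed level 132 to 284 CPM in starved, 337 to 536 CPM in fed libraries), all 3 erythroid markers tested fell (8.38 to 26.1 and 28.2 to 47.4 CPM, with Hba-a1 at 0 in every library), and all 3 neutrophil markers tested rose (2.78 to 22.1 and 1.75 to 3.65 CPM). Endothelial markers rose for 1 and fell for 3 of 7 (198 to 257 CPM in starved, 243 to 280 CPM in fed), stellate markers rose for 1 and fell for 2 of 7 (425 to 622 and 422 to 485 CPM), and cholangiocyte markers fell for 1 of 5 (15.02 to 40.8 and 46.4 to 57.4 CPM). None of 4 lymphocyte markers was called (1.01 to 4.67 and 3.90 to 5.57 CPM), 1 of 3 pancreatic markers fell (7.10 to 12.4 and 19.3 to 28.6 CPM), and muscle markers were too low to test (0.289 to 0.786 and 0.331 to 0.983 CPM). The part of these cell types in the enzyme values was not tested.

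Around the cycle, Cs comes first: it condenses acetyl-CoA with oxaloacetate to make citrate. Its level was 71.6, 72.2, 76.0, 75.5 and 71.2 CPM in starved libraries 1 to 5, against 89.4, 105.4, 90.1, 86.8 and 86.7 CPM in fed libraries 1 to 5. Every starved library lay below every fed one, and fed library 2 stood above the other 4 fed libraries. Cs fell by 0.32 ± 0.09 on the log2 scale (SE; edgeR adjusted p = 0.0131), with means of 73.3 ± 2.26 CPM in starved and 91.7 ± 7.83 CPM in fed liver (SD, n = 5 each). Cs was the only member to fall, and its starved libraries agreed closely, with a coefficient of variation of 3.08% against 8.54% in fed libraries.

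NAD-dependent isocitrate dehydrogenase, which oxidises isocitrate to 2-oxoglutarate in the matrix, is built of a catalytic subunit encoded by Idh3a and of subunits encoded by Idh3b and Idh3g. Idh3a stood at 68.1, 77.9, 70.1, 105.0 and 60.5 CPM in starved libraries 1 to 5, against 39.5, 42.3, 39.9, 37.0 and 40.1 CPM in fed libraries 1 to 5. The groups were far apart, and starved library 4 was the highest. Idh3a rose by 0.94 ± 0.14 on the log2 scale (SE; edgeR adjusted p = 0.00048).

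Idh3g, which has a regulatory role in the enzyme, was at 88.2, 103.5, 79.2, 92.1 and 83.5 CPM in starved libraries and at 55.4, 64.9, 58.9, 58.7 and 54.6 CPM in fed libraries. No values overlapped, and library 2 was the highest of each group. Idh3g rose by 0.61 ± 0.10 on the log2 scale (SE; edgeR adjusted p = 0.00082). Idh3b, the most abundant of the 3 per kilobase of exon, was at 246.2, 242.7, 239.5, 217.9 and 215.9 CPM in starved libraries and at 201.9, 184.1, 182.3, 193.8 and 185.7 CPM in fed libraries. The groups again did not overlap. The log2 fold change of Idh3b was 0.29 ± 0.09 (SE; edgeR adjusted p = 0.0214). The call was lost without fed library 3 (0.28, edgeR adjusted p = 0.0561) and without fed library 5 (0.28, adjusted p = 0.055), and with scaling by library totals alone (0.13, adjusted p = 0.312).

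Ogdh, the component of the 2-oxoglutarate dehydrogenase complex that decarboxylates 2-oxoglutarate, was at 113.1, 210.2, 141.0, 234.8 and 126.4 CPM in starved libraries 1 to 5, against 76.2, 98.4, 85.9, 91.1 and 90.0 CPM in fed libraries 1 to 5. All starved libraries were higher, and libraries 2 and 4 were far above the other 3. The mean was 165 ± 54.0 CPM in starved and 88.3 ± 8.16 CPM in fed liver (SD, n = 5 each). The log2 fold change of 0.90 ± 0.20 (SE; edgeR adjusted p = 0.00412) became 0.54 when starved libraries 2 and 4 were left out (edgeR adjusted p = 0.00132).

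Succinyl-CoA synthetase converts succinyl-CoA to succinate and makes a nucleoside triphosphate in doing so. Suclg1 encodes the alpha subunit shared by both forms of the enzyme, Suclg2 the beta subunit of the GTP-forming form, and Sucla2 the beta subunit of the ATP-forming one. Suclg1 was at 264.1, 174.5, 246.1, 222.0 and 199.3 CPM in starved libraries 1 to 5, against 165.2, 153.6, 162.2, 162.5 and 171.4 CPM in fed libraries 1 to 5. The groups did not overlap, but starved library 2 lay just above the highest fed library. Suclg1 rose by 0.44 ± 0.12 on the log2 scale (SE; edgeR adjusted p = 0.0129), and the call was lost with scaling by library totals alone (0.29, adjusted p = 0.132).

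Suclg2 was at 351.1, 184.4, 314.7, 221.5 and 302.0 CPM in starved libraries and at 326.0, 356.2, 309.4, 377.5 and 334.0 CPM in fed libraries. Starved libraries 2 and 4 lay below all others, whereas starved libraries 1 and 3 lay within the fed range and library 5 just under it. The log2 fold change was -0.31 (95% confidence interval -0.67 to 0.05; edgeR adjusted p = 0.159), and -0.06 when starved libraries 2 and 4 were left out (edgeR adjusted p = 0.683). Libraries 2 and 4 were therefore low for Suclg2 where they were high for Ogdh and Fh1.

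Fh1 encodes fumarate hydratase, which turns fumarate into malate, including fumarate released by the urea cycle and by amino acid breakdown. It was at 519.1, 1018, 523.3, 952.1 and 471.1 CPM in starved libraries 1 to 5, against 180.4, 173.8, 174.0, 194.4 and 188.1 CPM in fed libraries 1 to 5. The lowest starved library exceeded the highest fed one by a wide margin, and libraries 2 and 4 again stood above the other 3. The mean was 697 ± 265 CPM in starved and 182 ± 9.04 CPM in fed liver (SD, n = 5 each). The log2 fold change was 1.94 ± 0.22 (SE; 95% confidence interval 1.45 to 2.43; edgeR adjusted p = 0.00012), above 98.6% of all tested genes, and 1.49 when libraries 2 and 4 were left out (edgeR adjusted p = 5.3e-07). In starved libraries Fh1 had the widest spread of the 9 genes, with a coefficient of variation of 38.1%, against 4.96% in fed libraries.

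Mdh2 closes the cycle by oxidising malate to oxaloacetate. Its level was 82.6, 92.7, 77.2, 96.8 and 73.3 CPM in starved libraries 1 to 5, against 42.9, 46.9, 47.6, 50.9 and 53.6 CPM in fed libraries 1 to 5. All starved libraries were higher, and libraries 2 and 4 were the 2 highest. Mdh2 rose by 0.81 ± 0.11 on the log2 scale (SE; edgeR adjusted p = 0.00028).

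**Figure D2:**
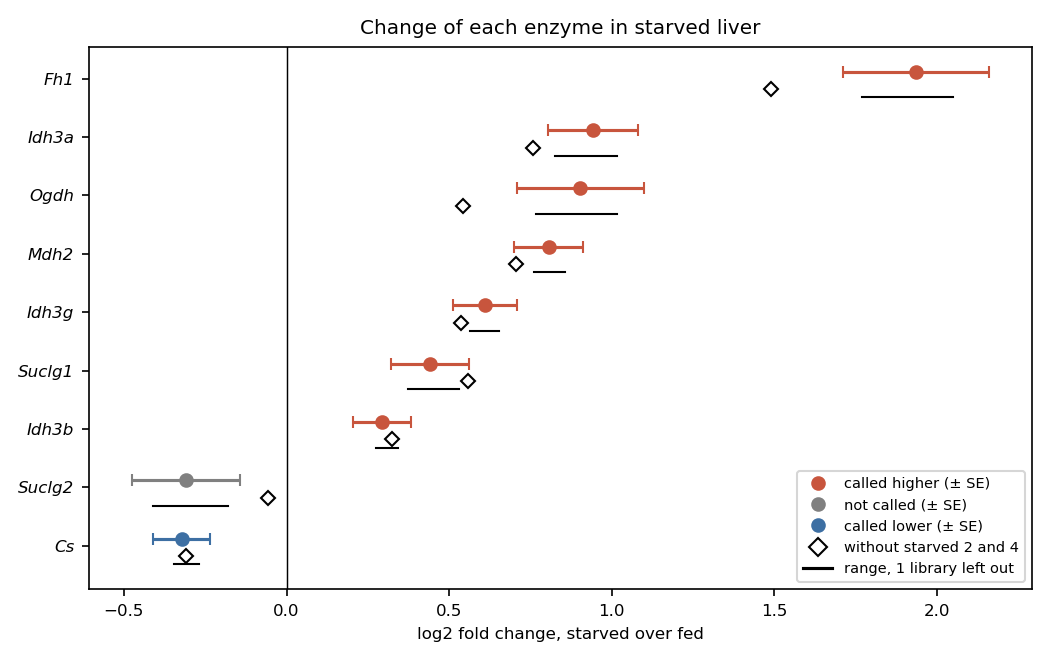
Log2 fold change of the 9 genes, starved over fed, with its SE as a bar. Diamonds give the value without starved libraries 2 and 4, and black lines the range over leaving out each library in turn. Fh1 is farthest right at 1.94 and Cs farthest left at -0.32, and the diamonds of Fh1 and Ogdh lie closer to 0, at 1.49 and 0.54.

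The genes lie on 8 chromosomes of mm10, Suclg1 and Suclg2 sharing one. Cs is on the plus strand at chr10:128337734-128362479, Idh3a on the plus strand at chr9:54586334-54604661, Idh3b on the minus strand at chr2:130279309-130284547 and Idh3g on the minus strand at chrX:73778963-73786897. Ogdh is on the plus strand at chr11:6291633-6356642, Suclg1 on the plus strand at chr6:73248382-73276911 and Suclg2 on the minus strand at chr6:95473009-95718800. Fh1 is on the minus strand at chr1:175600374-175625635 and Mdh2 on the plus strand at chr5:135778480-135790398. Their longest coding transcripts have between 9 exons (Mdh2 and Suclg1) and 24 exons (Ogdh).

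Overlapping genes and near copies limit some values, since the strand setting of the counting is not given in the sources used here. Fh1 overlaps Kmo on the opposite strand over 5255 bases, none of them exonic in both. Kmo, a tryptophan-degrading enzyme, averaged 471 ± 46.3 CPM in starved and 392 ± 35.8 CPM in fed liver (SD, n = 5 each) and was not called (log2 0.26 ± 0.11; edgeR adjusted p = 0.0784). Idh3b overlaps Nop56, a small nucleolar ribonucleoprotein gene, by 5 bases on the opposite strand. Nop56 averaged 33.5 ± 7.20 CPM in starved and 18.8 ± 2.10 CPM in fed liver and rose (log2 0.84 ± 0.15). Of the 50-base stretches of their transcripts, 21.8% of those of Suclg2 and 4.00% of those of Cs also occur in a transcript of another gene, and none of those of the other 7 genes does.

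The stretches just before the start sites of Fh1 and Cs, the genes with the largest rise and the only fall, are shown beside sequence of Ogdh and Mdh2 that holds the letters of a cAMP response element. The sequences are RefSeq's, on GRCm38.p6, read 5′ to 3′ on the gene's strand, with 250 bases for Fh1 (chr1:175625636-175625885, minus strand), Cs (chr10:128337477-128337726, plus strand) and Ogdh (chr11:6291347-6291596, plus strand) before RefSeq's start. For Mdh2 the 30 bases around the motif are shown (chr5:135778511-135778540, plus strand). The RefSeq start used for Mdh2 lies downstream of the GENCODE start given above, so these 30 bases lie inside the gene as GENCODE draws it. Capitals mark the letters TGACGTCA, the motif bound by CREB.
Fh1: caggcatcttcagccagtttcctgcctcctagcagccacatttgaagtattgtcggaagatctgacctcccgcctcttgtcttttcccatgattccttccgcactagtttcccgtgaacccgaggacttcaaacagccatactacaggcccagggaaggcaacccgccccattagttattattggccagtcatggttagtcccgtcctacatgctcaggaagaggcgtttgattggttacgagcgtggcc
Cs: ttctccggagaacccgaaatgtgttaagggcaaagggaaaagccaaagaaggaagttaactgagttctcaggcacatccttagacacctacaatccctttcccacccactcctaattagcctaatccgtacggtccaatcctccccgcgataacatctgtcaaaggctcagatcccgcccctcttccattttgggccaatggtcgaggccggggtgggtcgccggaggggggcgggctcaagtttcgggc
Ogdh: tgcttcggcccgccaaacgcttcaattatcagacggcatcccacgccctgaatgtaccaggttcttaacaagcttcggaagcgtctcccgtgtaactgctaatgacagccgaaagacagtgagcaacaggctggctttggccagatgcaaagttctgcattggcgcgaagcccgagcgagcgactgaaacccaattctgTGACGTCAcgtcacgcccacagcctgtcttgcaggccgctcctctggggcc
Mdh2: ggagagaatcgTGACGTCAggcctcgctcg

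RefSeq's promoter table held 8 of the 9 genes, and 6 motifs were searched on both strands in the 250 bases before RefSeq's start. These windows hold 169 exonic bases of Mdh2, 123 of Suclg1 and 96 of Idh3b by GENCODE's annotation, and that of Idh3g holds 120 exonic bases of its neighbour Ssr4. TGACGTCA was found 51 bases before the RefSeq start of Ogdh and 127 bases before that of Mdh2, the second after GENCODE's start, and in 1.62% of 27025 promoters. The ETS motif CCGGAAG was found 104 bases before the start of Idh3g (7.05% of promoters), and the YY1 motif AAGATGGCG 130 bases before it (0.607%). The NRF1 motif TGCGCANGC (3.58%), the estrogen-related receptor motif TCAAGGTCA (0.366%) and the FOXO motif GTAAACA (3.09%) had no match in the windows of these 8 genes. A match describes letters only and is not shown to be a site of binding.

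Ratios between subunits and between enzymes were compared within each library, which removes the scaling between libraries. Over 10 pairs an exact two-sided permutation test on the log2 ratio was used, adjusted over the 10 pairs (Benjamini-Hochberg). The smallest p it can give for 5 against 5 is 0.00794. In 9 of the 10 pairs the adjusted p was 0.0177 or lower. The pairs were chosen with earlier results of these data known. How many other gene pairs would pass was not computed, so the count is a description of these pairs only.

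Within isocitrate dehydrogenase the Idh3a to Idh3b ratio was 0.277, 0.321, 0.293, 0.482 and 0.280 in starved libraries 1 to 5, against 0.196, 0.230, 0.219, 0.191 and 0.216 in fed libraries 1 to 5. Relative to Idh3b, the catalytic subunit's transcript was higher in every starved library than in any fed one. Starved library 4 stood apart from the other 4, and the log2 difference was 0.62 (exact permutation p = 0.00794, adjusted 0.0113). Idh3a to Idh3g was higher by 0.31 (exact permutation p = 0.0159, adjusted 0.0177) and Idh3b to Idh3g lower by -0.31 (the same p-values). For both pairs the lowest and highest libraries of the groups overlapped. Leaving out starved libraries 2 and 4 gave 0.22 for the first pair (adjusted p = 0.0596 in the exact permutation test) and -0.21 for the second (adjusted 0.0714), both above 0.05. Idh3a to Idh3g was also not called without fed library 2 (0.29, adjusted p = 0.0618 in the exact permutation test), fed library 3 (0.31, adjusted 0.0529) or fed library 4 (0.28, adjusted 0.0706), and was 0.20 without starved library 4 (adjusted 0.0298).

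For succinyl-CoA synthetase the Suclg1 to Suclg2 ratio was 0.752, 0.947, 0.782, 1.002 and 0.660 in starved libraries, against 0.507, 0.431, 0.524, 0.431 and 0.513 in fed libraries. Alpha subunit transcript was higher relative to the GTP-type beta subunit in every starved library (log2 difference 0.77, exact permutation p = 0.00794, adjusted 0.0113). Suclg2 to Sucla2 was 1.72, 1.10, 1.53, 1.48 and 1.74 in starved libraries, against 2.01, 2.14, 1.87, 2.32 and 2.06 in fed libraries. The GTP-type beta subunit was thus lower relative to the ATP-type one in every starved library (log2 difference -0.47, exact permutation p = 0.00794, adjusted 0.0113).

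The Fh1 to Mdh2 ratio, of the enzymes either side of malate, averaged 8.06 ± 2.19 in starved and 3.78 ± 0.265 in fed liver (SD, n = 5 each). The log2 difference was 1.05 (exact permutation p = 0.00794, adjusted 0.0113), so the fold change of Fh1 exceeded that of Mdh2. Ogdh to Dlst, the succinyltransferase core of the same complex, was 0.725 ± 0.230 in starved and 0.725 ± 0.0497 in fed liver (log2 difference -0.05, exact permutation p = 0.794). Leaving out starved libraries 2 and 4, which had the 2 highest starved ratios, gave -0.33 (adjusted to 0.0256 in the exact permutation test).

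In 3 pairs of a member with an enzyme of the cytosol or of another route, the ratio was higher in starved liver. Mdh2 to Mdh1, the cytosolic malate dehydrogenase, averaged 0.101 ± 0.0146 in starved and 0.0697 ± 0.00849 in fed liver (SD, n = 5 each; log2 difference 0.54). Idh3a to Idh2, the NADP-dependent isocitrate dehydrogenase of the mitochondria, averaged 0.692 ± 0.268 in starved and 0.306 ± 0.0417 in fed liver (log2 difference 1.11). Cs to Acly, ATP citrate lyase, which splits citrate in the cytosol, averaged 0.947 ± 0.177 in starved and 0.262 ± 0.0655 in fed liver (log2 difference 1.88). Each of these 3 pairs did not overlap between groups and had an exact permutation p of 0.00794 (adjusted 0.0113), and Cs itself fell, so the last ratio moved with the larger fall of Acly.

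**Figure D3:**
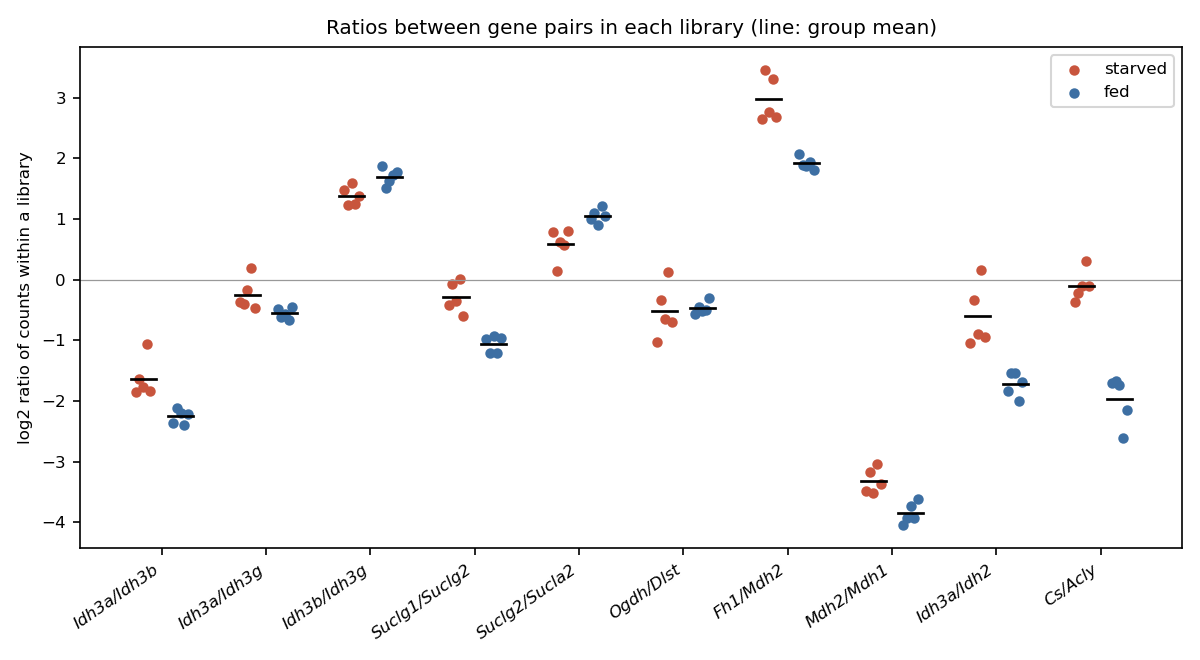
Log2 ratio of the read counts of 2 genes within a library, for 10 pairs, in 5 starved livers (left of each pair, red) and 5 fed livers (right, blue). Points are libraries and lines are group means. Starved and fed points lie apart for Idh3a/Idh3b, Suclg1/Suclg2, Suclg2/Sucla2 and Fh1/Mdh2 and overlap for Ogdh/Dlst.

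Per kilobase of merged exon, which allows levels to be set between genes, Fh1 was the highest of the 9 in starved liver at 205 ± 78.2 CPM per kb, and behind Suclg2 and Idh3b in fed liver at 53.7 ± 2.67 CPM per kb (SD, n = 5 each). In fed liver Suclg2 came first at 73.7 ± 5.75 CPM per kb, against 59.4 ± 14.98 CPM per kb in starved liver, and Idh3b second at 55.4 ± 2.39, against 67.9 ± 4.204 CPM per kb in starved liver. Suclg1 was at 47.9 ± 7.75 and Idh3g at 33.1 ± 3.45 CPM per kb in starved liver, against 35.3 ± 1.39 and 21.7 ± 1.49 CPM per kb in fed liver. Ogdh, Mdh2, Idh3a and Cs were the lowest 4 in both groups. In starved liver they stood at 30.3 ± 9.90, 23.7 ± 2.81, 15.1 ± 3.38 and 12.7 ± 0.391 CPM per kb, and in fed liver at 16.2 ± 1.49, 13.6 ± 1.15, 7.84 ± 0.375 and 15.9 ± 1.36 CPM per kb. The ranges of neighbours in the order overlapped for 7 of 8 neighbouring pairs in starved liver, all except Fh1 over Idh3b, and for 3 of 8 in fed liver.

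Of the summed per-kilobase level of the 9 genes, Fh1 held 40.4% ± 9.03 in starved and 18.3% ± 0.648 in fed liver (SD, n = 5 each). Suclg2 held 12.6% ± 4.59 in starved and 25.1% ± 1.18 in fed liver, and Cs 2.61% ± 0.387 and 5.41% ± 0.473. As Fh1 takes a larger part of the sum in starved liver, the share of another gene can fall without a fall in its level. Idh3b held 14.0% ± 2.19 in starved and 18.9% ± 0.926 in fed liver, although its level rose. Summed over the 9 genes without regard to length, the level was 1603 to 2218 CPM in starved and 1150 to 1253 CPM in fed libraries, so the groups did not overlap. With the longest coding transcript in place of merged exons, 5 genes change rank in starved and 6 in fed liver. Fh1 stays first in starved liver on that scale, whereas in fed liver Idh3b (117 ± 5.07 CPM per kb) and Suclg1 (107 ± 4.21 CPM per kb) come before Suclg2 (101 ± 7.90 CPM per kb).

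**Figure D4:**
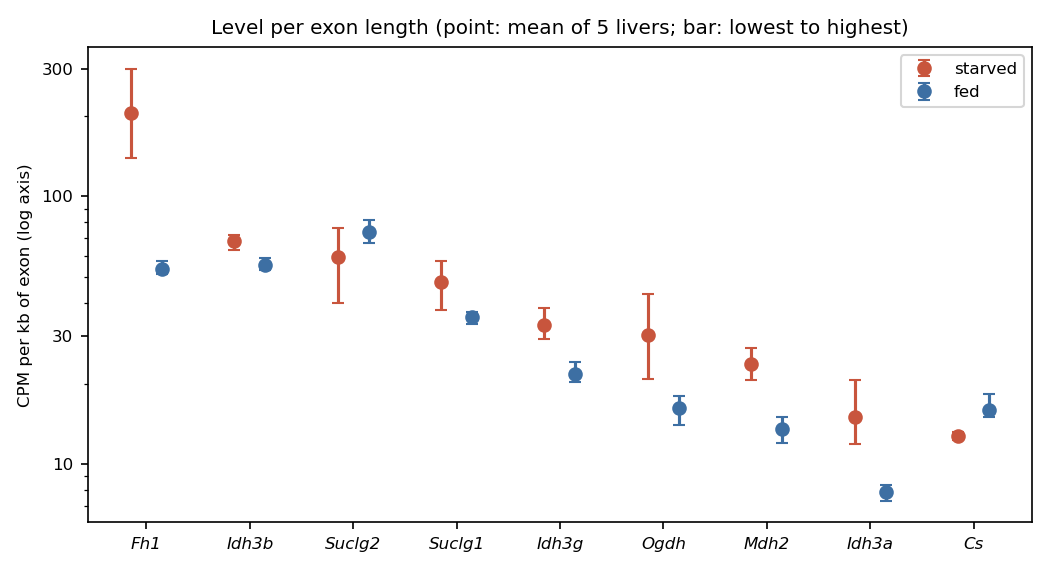
Level of the 9 genes in CPM per kilobase of exon on a log axis, in starved livers (left of each gene, red) and fed livers (right, blue). Points are means of 5 livers and bars run from the lowest to the highest library. Fh1 is highest in starved liver, at 205 CPM per kb, and Suclg2 in fed liver, at 73.7 CPM per kb.

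The rest of the cycle and the reactions around it were described from lists. By the same rule 18.6% of all tested genes rose and 20.0% fell. Of 8 other citric acid cycle genes, 4 rose and 0 fell, with a median log2 fold change of 0.24. Dlst rose by 0.90 ± 0.10 on the log2 scale (SE; edgeR adjusted p = 0.00012; 228 ± 23.3 CPM in starved and 122 ± 10.1 CPM in fed liver). Dld, the dihydrolipoyl dehydrogenase of the same complex, rose by 0.41 ± 0.08 (edgeR adjusted p = 0.00329; 93.5 ± 6.48 CPM in starved and 70.5 ± 2.46 CPM in fed liver). Sdhb and Sdhd also rose, whereas Sdha and Sdhc, other subunits of succinate dehydrogenase, had log2 fold changes of -0.15 and 0.05 and were not called, as were Sucla2 (0.14) and Mrps36 (0.16).

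Of 7 isoenzymes and related enzymes outside the NAD-linked cycle 6 were tested. Of these 1 rose and 3 fell, with a median log2 fold change of -0.33. Acly fell by 2.22 on the log2 scale (edgeR adjusted p = 2.01e-05; 79.1 ± 11.8 CPM in starved and 369 ± 98.3 CPM in fed liver). Idh1, the cytosolic NADP-dependent isocitrate dehydrogenase, fell by 1.68 (edgeR adjusted p = 0.00091; 209.6 ± 89.7 and 672 ± 42.8 CPM). Dhtkd1, which acts on 2-oxoadipate in a complex related to that of Ogdh, rose by 0.77 ± 0.17 (edgeR adjusted p = 0.00514).

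Among the reactions that feed or drain the cycle, 17 of 18 listed genes were tested, and 6 rose and 4 fell, with a median log2 fold change of 0.17. Got1 and Gpt2, which exchange amino groups with oxaloacetate and pyruvate, rose by 3.19 ± 0.47 and 1.43 ± 0.27 on the log2 scale (edgeR adjusted p = 0.0005 and 0.00191). Me2 and Me1, malic enzymes that turn malate into pyruvate, fell by 0.77 and 0.74 (edgeR adjusted p = 0.0034 and 0.0121). Me2 was low, at 2.58 ± 0.379 CPM in starved and 4.42 ± 0.684 CPM in fed liver (SD). Me1 was at 114 ± 22.7 and 191 ± 52.4 CPM, and its groups overlapped. Of the 10 carriers and succinate dehydrogenase assembly factors tested, 2 rose and 1 fell (median 0.16), against 18.6% and 20.0% of all tested genes. Slc25a12, an aspartate-glutamate carrier, rose by 0.85 ± 0.19, and Slc25a20, the carnitine-acylcarnitine carrier, by 0.64 ± 0.17. Slc25a1, which exports citrate to the cytosol, fell by 1.34 (edgeR adjusted p = 2.52e-05; 75.3 ± 10.8 CPM in starved and 191 ± 15.6 CPM in fed liver). With starved libraries 2 and 4 left out, 5 of these 10 rose and 1 fell. Of the isoenzymes and related enzymes 2 rose and 3 fell. In the same setting 8 entry and exit genes rose and 4 fell, and 5 other citric acid cycle genes rose and 0 fell. Over all tested genes 2646 rose and 2705 fell without these libraries, against 2379 and 2555 with them.

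**Figure D5:**
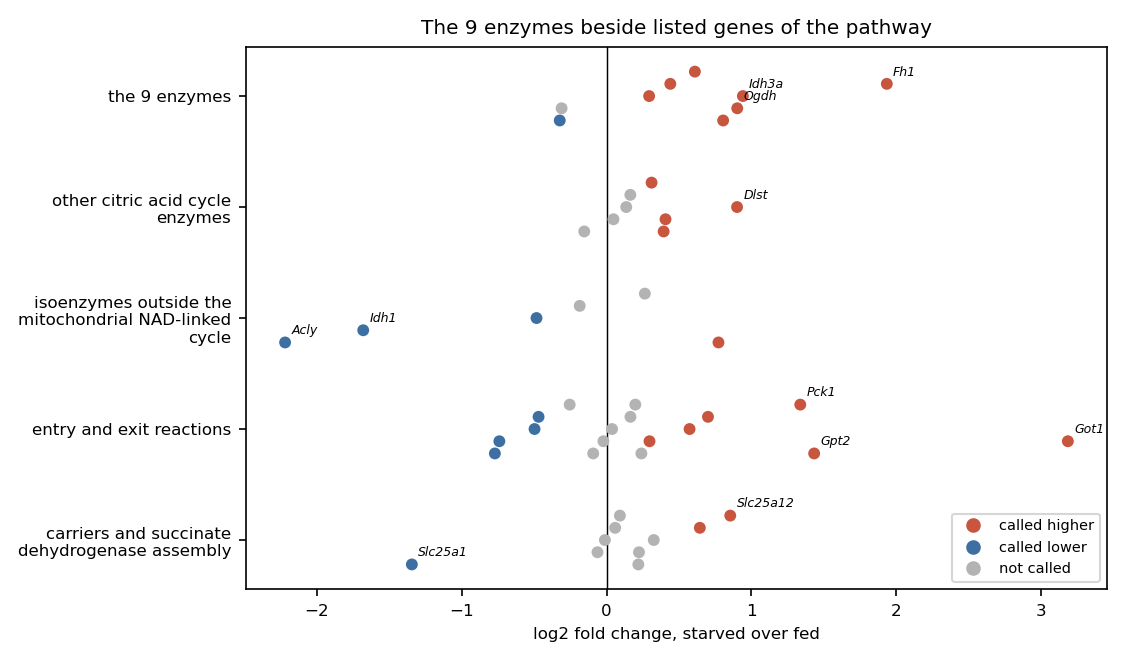
Log2 fold change, starved over fed (x axis), of the 9 genes and of the tested genes of 4 pathway lists, 1 point a gene and 1 row of points a list. Red points rose, blue points fell and grey points were not called, and the height within a row only separates points. Fh1 is farthest right among the 9 genes at 1.94, Got1 at 3.19 is farthest right of all, and Acly at -2.22 is farthest left.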

How the data were processed

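Liver RNA of each mouse was sequenced from libraries of a stranded total-RNA kit, per the labels. The authors deposited raw whole-number counts of reads for each gene symbol. Build mm10 and the tools HTSeq, TopHat2 2.0.0, Bowtie2 2.0.0, CASAVA 1.8.2 and edgeR 3.6.4 are listed in the submitters' processing notes; annotation and strand setting were not given in the sources used here. HTSeq's unassigned tallies (58.2 to 68.8% of all that HTSeq counted in a library) name no gene and were left out. The tally for alignment to several places was 42.9% ± 3.68 of that total in starved and 47.1% ± 0.780 in fed libraries (SD, n = 5 each).

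In R 4.3.3, edgeR 4.0.16 filtered low genes (filterByExpr), scaled libraries by TMM and fitted the quasi-likelihood test over all 10 libraries. CPM values are TMM-scaled, and an SE is the log2 fold change divided by the root of F. Exon lengths and positions come from GENCODE on GRCm38 (mm10), counted from 1. Ratios use counts plus 0.5. Alternatives were other scalings, DESeq2 1.42.0, limma-voom (limma 3.58.1), other filters, a replicate block, a threshold of 0.01 and libraries left out. Named genes are the 9 members, the genes of 10 pairs and, in 4 pathway lists, up to 2 called genes with the highest and 2 with the lowest change. Further list genes, and Kmo and Nop56, which overlap members, were named after their values were seen. Members, 4 pathway lists, 10 marker lists and tests were chosen with earlier results of these data known. Some genes that these rules select are not reported here.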

Additional observations from a re-analysis of the deposited data

Results flagged for a closer look

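In 38 groups of 5 libraries examined, 2 held a library whose gap to the others exceeded the 95% critical value for 5 samples, a gap of 0.71 of the group's range. Chance flags about 1 in 20 groups. Starved library 4 had an Idh3a to Idh3b log2 ratio of -1.05, against -1.85 to -1.64 in the other starved libraries. Without it the difference between starved and fed liver was 0.48 (adjusted p = 0.0132 in the exact permutation test). Fed library 2 had 105.4 CPM of Cs, against 86.7 to 90.1 CPM in the other fed libraries, and without it the log2 fold change of Cs was -0.27 (edgeR adjusted p = 0.0344). The reason for either value was not tested.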

How the results depend on the processing

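Of the 9 genes, 6 to 7 rose and 1 fell when each library was left out in turn, and the number that rose was 5 to 7 under the other alternatives. At an adjusted threshold of 0.01, 5 rose and 0 fell, and over all genes 1272 rose and 1526 fell, against 2379 and 2555. Scaling by library totals alone moved the median log2 fold change of all genes to -0.15 and gave 1490 genes that rose and 3489 that fell, and 5 and 1 of the 9 genes. Over libraries left out, 1868 to 2766 genes rose and 2043 to 2847 fell, and 8 to 9 of 10 ratio pairs passed. The labels speak of 5 pairs of mice without saying that a number marks a pair, and the numbers were not taken as pairs: same-number correlations ran from -0.04 to 0.19, 1 of 5 over 0.1, and 2 of 5 starved libraries were closest to the fed library of their number. With the replicate block 6 of the 9 genes rose and 1 fell, 2029 genes rose and 2381 fell in all, and Idh3b was at 0.29 (edgeR adjusted p = 0.0542). The sign-flip test of the ratios as a replicate block passed 0 pairs, since 5 pairs cannot give an exact p below 0.0625. The Ogdh to Dlst difference ran from -0.21 to 0.076 over libraries left out, turning positive without starved replicate 1, and the cause was not tested. With longest coding transcripts as lengths, 5 starved and 6 fed ranks changed.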

Other observations

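By Pearson's r of log2 CPM over the 10 libraries after group means were removed, the gene most like each of 8 members among 8974 genes compared was Caskin2 for Cs, Wapal for Idh3a, Prkrir for Idh3b, Aftph for Ogdh, Psmd10 for Suclg1, Samd9l for Suclg2, Agxt2l1 for Fh1 and Ep300 for Mdh2. The values ran from 0.94 for Cs to 0.99 for Fh1 and Suclg2, and they describe 10 libraries that share a scaling, of which starved libraries 2 and 4 lie apart. Each value is the highest over 8974 genes, so selection alone raises it. The value that unrelated genes would reach was not computed.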
